A study of Cairina moschata with 9 samples.

Results

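The abdominal fat of the Muscovy duck (Cairina moschata) contained 143 genes whose transcript level stood highest at 35 weeks of age among 3 ages sampled. They were taken from a table of 14814 genes by their FPKM values (fragment numbers scaled by transcript length and library size). A member averaged 1 FPKM or more across the 9 libraries and had a 35-week mean at least 2 times the 12-week mean and at least 2 times the 66-week mean. Its lowest 35-week value also had to lie above the highest of the 6 other values. The members made up 1.24% of the 11491 genes that averaged 1 FPKM or more. Because these values chose the members, their height at 35 weeks is given below as a description and carries no test. In 4.1% of the 11491 genes all 3 libraries of 35 weeks lay above the 6 others, with or without the 2-fold condition.

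The tissue came from ducks of 12, 35 and 66 weeks, with 3 birds of normal body weight at each age and 1 RNA sequencing library per bird. The birds differed by age only, as far as the labels state, and no treatment or genotype is named. The sex of the birds is not stated in the labels. Each age had a lane code of its own in the labels (3, 4 and 5 at 12, 35 and 66 weeks), so that lane and age cannot be told apart.

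Abdominal fat is a large lipid depot of poultry. In birds much of the fat stored there is made in the liver and reaches the adipocytes in lipoproteins, from which lipoprotein lipase releases the fatty acids. The depot is drawn on and refilled as a bird grows, matures sexually and, in females, produces yolk. The gene identifiers are not paired with gene names in the files, so no member is given a name or a role here, and the labelled tissue could not be checked against adipocyte or other cell type markers. In a tissue sample of this kind, more cells of a type and more RNA per cell cannot be told apart. Identifiers are printed for the members of rank 1 and 2, and other members are described by their values.

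Relative sequencing depth, read from the FPKM value of a single fragment in low genes, ranged from 0.892 to 1.28 with the mean of the libraries as 1. Each library had 10814 to 11291 genes at 1 FPKM or more. The median level of all 11491 genes was 16.3 ± 0.482 FPKM in the 12-week birds, 16.8 ± 0.216 FPKM in the 35-week birds and 16.7 ± 0.264 FPKM in the 66-week birds (SD, n = 3 each). Bird 3 of 12 weeks stood apart. Over all tested genes its log2 values had a mean Pearson's r of 0.844 with the other 12-week birds and of 0.886 with the 35-week birds, a description across genes, which are not independent replicates. For the members, the main values at 12 weeks and of 66 against 12 weeks are also given without this bird.

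The median member stood at 6.49 ± 2.01 FPKM in the 12-week birds, 20.0 ± 1.94 FPKM in the 35-week birds and 4.78 ± 0.809 FPKM in the 66-week birds (SD of the library medians, n = 3 each). By library the median of the members was 6.20, 4.64 and 8.62 FPKM in the 12-week birds, 21.6, 20.5 and 17.8 FPKM in the 35-week birds and 5.34, 5.14 and 3.85 FPKM in the 66-week birds. Most peaks were of moderate size. The median ratio of the 35-week mean was 2.58 to the 12-week mean, over the 141 members with a value at 12 weeks, and 3.98 to the 66-week mean, over 142 members. The 35-week mean was at least 4 times both other means in 15 members and at least 10 times both in 3. Without bird 3 of 12 weeks the library medians at 12 weeks averaged 5.42 ± 1.11 FPKM (SD, n = 2), the median ratio to the 12-week mean was 3.08, and 27 members reached 4 times both other means and 7 reached 10 times.

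**Figure D1:**
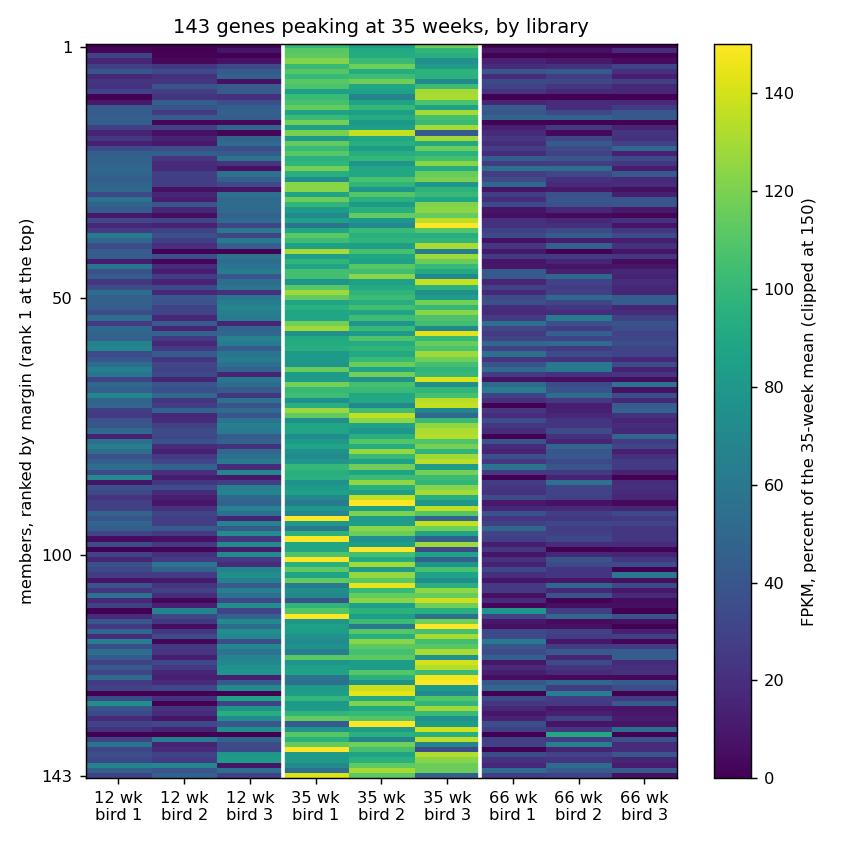
FPKM of each of the 143 members (rows, ranked by the gap between the lowest 35-week value and the highest other value, widest at the top) in each of the 9 libraries (columns), as a percent of the 35-week mean of that member. The 35-week columns are brightest by the choice of members, and among the other columns bird 3 of 12 weeks is the brightest, with a median of 49.5% against 37.0% and 24.5% in the other 12-week birds.

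The members covered a wide range of expression. The highest 35-week mean was 27981 FPKM among the members and 152223 FPKM among all tested genes. At 35 weeks 30 members had a mean under 5 FPKM, 66 lay between 5 and 50 FPKM, 40 between 50 and 500 FPKM and 7 at 500 FPKM or more. In this order these were 21.0%, 46.2%, 28.0% and 4.9% of the members, against 19.6%, 60.1%, 17.6% and 2.65% of all 11491 genes. Of all 11491 genes, 305 had a 35-week mean of 500 FPKM or more. The members held 1.247 ± 0.713% of the summed FPKM of all genes at 12 weeks, 2.82 ± 0.740% at 35 weeks and 0.396 ± 0.0638% at 66 weeks (SD, n = 3 each). The summed FPKM of all genes was itself not constant, at a mean of 1.31e+06, 1.61e+06 and 1.97e+06 in this order. The members alone summed to a mean of 15806, 44798 and 7744 FPKM. By library the share at 12 weeks was 1.11%, 0.614% and 2.02%, the highest in bird 3, and without that bird it averaged 0.860 ± 0.348% (SD, n = 2). A single member made up most of the summed FPKM of the members. Without it the members summed to 4893 ± 1696 FPKM in the 12-week birds, 16817 ± 624 FPKM in the 35-week birds and 2885 ± 490 FPKM in the 66-week birds (SD, n = 3 each).

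Members were ranked by the gap between their lowest 35-week value and their highest value at another age, on the log2(FPKM + 1) scale. Rank 1 was far ahead of all others. ENSAPLG00000014341 stood at 4.96, 2.16 and 7.24 FPKM in the 12-week birds, at 490, 414 and 573 FPKM in the 35-week birds and at 4.63, 1.57 and 0.708 FPKM in the 66-week birds. Its lowest 35-week value was 57.1 times its highest value at the other ages, which came from bird 3 of 12 weeks. The next member had a gap of 5.15 times. ENSAPLG00000008841 stood at 0.208, 0.0580 and 0.892 FPKM in the 12-week birds, at 11.4, 9.31 and 10.02 FPKM in the 35-week birds and at 0.799, 0.683 and 1.81 FPKM in the 66-week birds. It was near the floor of the table in every bird outside 35 weeks, and its 35-week birds differed little, with a coefficient of variation (SD as a percent of the mean) of 10.2%.

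The member of rank 3 had the second highest level at 35 weeks, with 5179, 4234 and 4329 FPKM in the 3 birds. At 12 weeks it stood at 1409.6, 66.6 and 16.2 FPKM, and at 66 weeks at 34.9 and 27.0 FPKM, with bird 3 listed at 0. At 12 weeks bird 1 was more than 10 times the other birds. The member of rank 4 was low at both other ages, with 0.745, 0.142 and 0.332 FPKM in the 12-week birds, 5.57, 4.63 and 3.46 FPKM in the 35-week birds and 0.638, 0.477 and 0.190 FPKM in the 66-week birds. In 4 of the 143 members every value outside 35 weeks was under 1 FPKM.

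Members of rank 5 to 10 had smaller and more even gaps, with a lowest 35-week value 1.97 to 2.46 times the highest other value. The member of rank 7 had the most even values at 35 weeks among the first 10, at 271, 278 and 260 FPKM. It stood at 46.2, 56.9 and 124 FPKM in the 12-week birds and at 49.6, 75.7 and 33.9 FPKM in the 66-week birds. Over all 143 members the lowest 35-week value was a median of 1.36 times the highest other value, and it was at least 2 times that value in 11 members and at least 1.5 times in 41.

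**Figure D2:**
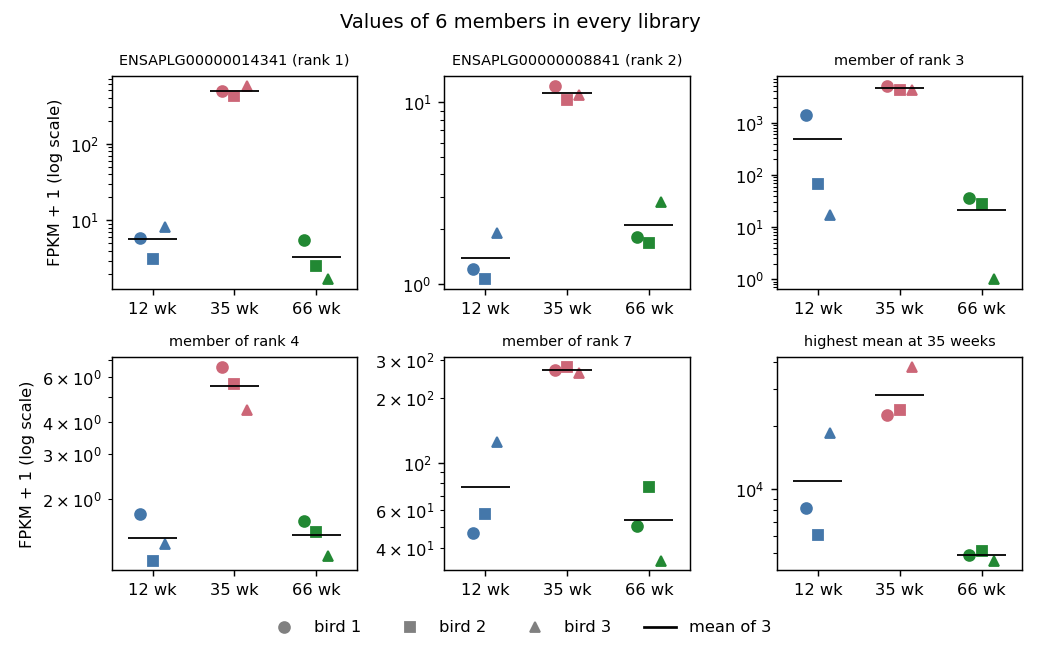
FPKM + 1 (vertical log axis, with its own range in each panel) of 6 members in the birds of 12, 35 and 66 weeks (symbols give the bird, lines the mean of 3 birds). ENSAPLG00000014341 lies between 414 and 573 FPKM in the 35-week birds and under 8 FPKM in all others, while the member with the highest 35-week mean has bird 3 of 12 weeks close below the 35-week birds.

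The member with the highest level stood at 8141, 6069 and 18528 FPKM in the 12-week birds, at 22359, 23626 and 37958 FPKM in the 35-week birds and at 4885, 5105 and 4587 FPKM in the 66-week birds. Bird 3 of 12 weeks came within 1.21 times of the lowest 35-week bird, while the 66-week birds were alike. The next by 35-week mean after the member of rank 3 stood at 631, 203 and 240 FPKM in the 12-week birds, at 1518, 1151 and 880 FPKM in the 35-week birds and at 196, 334 and 181 FPKM in the 66-week birds. Here bird 1 was the highest of the 12-week birds. FPKM is scaled by transcript length, so such a value is a level per length and not a number of fragments.

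The members that only just met the conditions are described for the edge of the set. The smallest ratio of means inside the 2-fold condition was 2.02, in a member at 16.1, 13.8 and 22.1 FPKM in the 12-week birds, 30.7, 32.6 and 41.6 FPKM in the 35-week birds and 13.1, 11.02 and 15.2 FPKM in the 66-week birds. The nearest gene outside it had a ratio of 1.99, with 13.2, 7.82 and 6.71 FPKM in the 12-week birds, 46.5, 39.8 and 19.9 FPKM in the 35-week birds and 16.6, 17.2 and 19.6 FPKM in the 66-week birds. For the condition on single birds, the nearest member had a lowest 35-week value 1.01 times its highest other value, and the nearest gene outside it 0.990 times. For the mean level, the nearest member had 1.06 FPKM over the 9 libraries and the nearest gene outside 0.980 FPKM. On the means alone, 322 genes met the 2-fold condition, and 179 of them had a bird of another age above the lowest 35-week bird. That bird was most often bird 3 of 12 weeks, which was the highest of the 6 in 85 of the 179, followed by bird 1 of 12 weeks in 47.

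The coefficient of variation between the 3 birds of 35 weeks had a median of 22.8% over the members, against 16.6% over all tested genes. It was under 10% in 19 members and over 50% in 11. At 12 weeks the median was 50.9% over the members and 21.6% over all tested genes, and at 66 weeks it was 34.1% and 16.5%. Between the 12-week birds 1 and 2 alone it was 36.9% over the members and 12.9% over all tested genes. The condition on single birds holds every 12-week and 66-week value below the lowest 35-week value, which caps the values at these 2 ages. At 35 weeks it sets a lower bound and no upper one. All tested genes carry no such bounds, so their spread is given beside the members as a description. The choice also takes genes that are low at 12 and 66 weeks. The median of the gene means was 7.41 FPKM over the members and 16.8 FPKM over all tested genes at 12 weeks. At 66 weeks it was 4.73 and 17.1 FPKM. Whether this lower level bears on the spread was not tested.

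The order of the 3 birds within 12 weeks or within 66 weeks is not fixed by how the members were chosen, although a gene in which any of these birds exceeded a 35-week bird was left out. Bird 3 was the highest of the 12-week birds in 95 of the 143 members (66.4%), bird 1 in 37 and bird 2 in 9, and 2 members were listed at 0 in all 3 birds. Over all tested genes bird 3 was the highest of its age in 44.8%, bird 1 in 25.8% and bird 2 in 28.5%. Bird 2 was rarely the highest among the members. At 66 weeks bird 2 was the highest in 60 members, bird 1 in 52 and bird 3 in 30, against 31.4%, 30.0% and 37.8% of all tested genes.

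Some members were carried at 12 weeks by a single bird. In 28 members bird 3 was at least 2 times the next 12-week bird, which was seen in 8.42% of all tested genes, and in 13 members bird 1 was, which was seen in 1.81%. A member carried by bird 3, rank 34, stood at 19.7, 10.8 and 90.1 FPKM in the 12-week birds, with 136, 217 and 218 FPKM in the 35-week birds and 11.3, 7.58 and 3.42 FPKM in the 66-week birds. A member carried by bird 1, rank 16, stood at 51.4, 2.69 and 3.48 FPKM in the 12-week birds, with 135, 91.1 and 116 FPKM in the 35-week birds and 1.27 and 0.656 FPKM in the 66-week birds 1 and 2, with bird 3 listed at 0. The member of rank 3 was also carried by bird 1, at 21.2 times the next bird. A further member carried by bird 1, rank 29, stood at 40.8, 5.43 and 7.03 FPKM in the 12-week birds, at 98.8, 63.8 and 77.7 FPKM in the 35-week birds and at 6.82, 8.04 and 5.52 FPKM in the 66-week birds. In these members a 12-week bird lay between its own age group and the 35-week birds, and which bird it was differed between members. These members were picked out after their values were seen.

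To look at a bird that the choice did not use, the conditions were applied to the other 8 libraries and the bird left out was then read. Without bird 1 of 35 weeks 246 genes met them, and in 61.8% of these that bird lay above all 6 birds of the other ages, against 10.8% of all genes tested. For bird 2 it was 85.6% of 167 genes, against 12.3%, and for bird 3 it was 70.8% of 178 genes, against 20.5%. In each case the bird left out lay above the other ages in most of the chosen genes. Its median level was 224% of the mean of the 6 other birds for bird 1, 283% for bird 2 and 263% for bird 3. The 6 other birds took part in the choice and are low in part for that reason, so these shares are a description with no test.

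**Figure D3:**
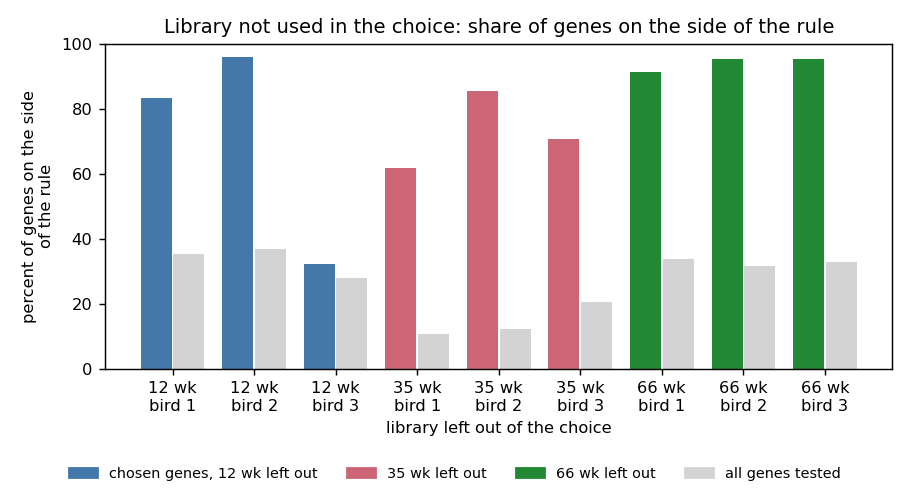
Percent of genes in which a bird left out of the choice fell on the side the conditions ask for (35-week birds above all 6 others, 12-week and 66-week birds below all 35-week birds), for genes chosen from the other 8 libraries (coloured bars) and for all genes tested (gray bars). The coloured bar stands well above the gray one for every bird except bird 3 of 12 weeks, at 32.3% and 27.8%. The birds kept took part in the choice, so the bars are a description with no test.

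The same reading of the 12-week and 66-week birds, added after the data had been seen, set bird 3 of 12 weeks apart. Without a 66-week bird 152 to 164 genes met the conditions, and the bird left out lay below all 35-week birds in 91.5% of them for bird 1, 95.5% for bird 2 and 95.4% for bird 3, against 33.7%, 31.7% and 33% of all genes tested. Bird 1 of 12 weeks did so in 83.3% of 174 genes and bird 2 in 96% of 100 genes, against 35.2% and 36.8%. The 35-week birds were high in the chosen genes by the choice, which does not hold for all genes tested. Here too the shares are a description with no test. Without bird 3 of 12 weeks 541 genes met the conditions, 140 members among them. In these 541 genes bird 3 lay below all 35-week birds in 32.3%, against 27.8% of all genes tested. Its median level there was 101% of the 35-week mean, and it was above that mean in 274 of the 541 genes and at no more than 50% of it in 73. In the same genes the 12-week birds 1 and 2, which took part in the choice, had a median of 36.8% and 29.4%. Bird 3 exceeded the lowest 35-week bird in 366 of the 541 genes, while in the 143 members it lay below all 35-week birds by their choice. Over the 11385 tested genes with a 35-week mean above 0, bird 3 had a median of 99.5%, and birds 1 and 2 had 94.3% and 95.5%. There bird 3 was above the 35-week mean in 5622 genes, above the lowest 35-week bird in 8066 and at no more than 50% of the mean in 988. The median of bird 3 and its shares above the mean and the lowest bird were thus near those of all tested genes. What sets this bird apart was not tested.

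**Figure D4:**
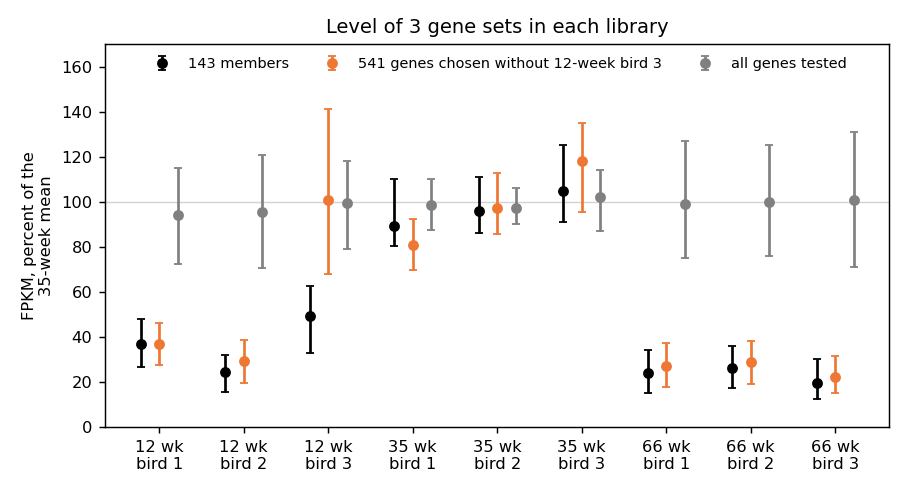
FPKM as a percent of the 35-week mean of each gene, by library, as the median (points) and quartiles (bars) over the 143 members, the 541 genes chosen without bird 3 of 12 weeks, and all genes tested. Bird 3 of 12 weeks has a median of 49.5% in the members and of 101% in the wider set, against 99.5% over all genes tested. The 66-week birds lie between 19.7% and 28.9% in the members and the wider set.

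Whether the members ended at 66 weeks where they had stood at 12 weeks is a contrast that the conditions do not set directly. The conditions do cap the values of both ages by those of 35 weeks. The highest other value was of 12 weeks in 116 members and of 66 weeks in 27. The tested genes as a whole carry no such cap, so their shares are given beside the members as a description. Most members were lower at 66 than at 12 weeks by their means. In the limma test 0 members passed, where 32 of all 11491 genes were called higher and 10 lower. With so few genes called, the 0 does not set the members apart from the tested genes. The 66-week mean lay below the 12-week mean in 120 members and above it in 23, while 47.6% of all tested genes had the lower mean at 66 weeks. It was at most 50% of the 12-week mean in 41 members and at least 2 times that mean in 4, against 854 and 692 of all 11491 genes. Without bird 3 of 12 weeks the 66-week mean was the lower in 93 members and the higher in 50, while 44.3% of all tested genes had the lower mean at 66 weeks. It was then at most 50% of the 12-week mean in 23 members and at least 2 times that mean in 8, against 499 and 780 of all 11491 genes. The median log2 fold change of 66 against 12 weeks was -0.385 over the members and 0.03 over all tested genes, on the log2(FPKM + 1) scale. The fold change was below 0 in 116 members, and at or below 0 in 46.8% of all tested genes. Without bird 3 of 12 weeks the median over the members was -0.196, with 92 of 143 below 0. Over all genes tested it was then 0.039, with 45.1% at or below 0.

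With limma across all genes and an adjusted p threshold of 0.05, 0 members were called higher and 0 lower at 66 than at 12 weeks, where 0.278% and 0.087% of all tested genes were called. These shares are 32 and 10 genes. With quantile normalization they were 5 and 4, and with any 1 library left out limma called 1 to 13 genes higher and 0 to 3 lower. At an unadjusted p under 0.05 limma gave 1 member higher and 31 lower, against 10.2% and 6.67% of all tested genes. The 31 became 46 without bird 2 of 12 weeks, 21 without bird 3 of 12 weeks and 20 without bird 3 of 66 weeks. Over all genes tested the number lower also moved, from 767 to 946, 650 and 578 in the same order. All 66-week birds lay below all 12-week birds in 28 members (19.6%) and above them in 2 (1.4%), against 9.77% and 13.3% of all tested genes. Without bird 3 of 12 weeks it was 33 and 6 members, against 14.3% and 19.8% of all tested genes. The member with the smallest p had 4.78, 2.08 and 3.29 FPKM in the 66-week birds, against 19.7, 11.4 and 34.1 FPKM in the 12-week birds. Its log2 fold change was -2.29 ± 0.39 (SE), and the adjusted p from limma was 0.0601, with a range of 0.0399 to 0.179 over the alternatives run and below the threshold in 2 of these 20. The next member had 0.471, 0.839 and 0.896 FPKM in the 66-week birds, against 3.54, 1.95 and 4.32 FPKM in the 12-week birds (difference on the log2 scale -1.26 ± 0.25 (SE), limma adjusted p = 0.0873). The member after that had 1.62, 1.38 and 1.41 FPKM in the 66-week birds, against 10.1, 3.40 and 9.91 FPKM in the 12-week birds (difference on the log2 scale -1.72 ± 0.34 (SE), limma adjusted p = 0.0901). Without bird 2 of 12 weeks, the lowest of its 12-week birds, the adjusted p of this member from limma was 0.00538. In no other alternative was it below the threshold. In all 3 members the 66-week birds lay below every 12-week bird.

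**Figure D5:**
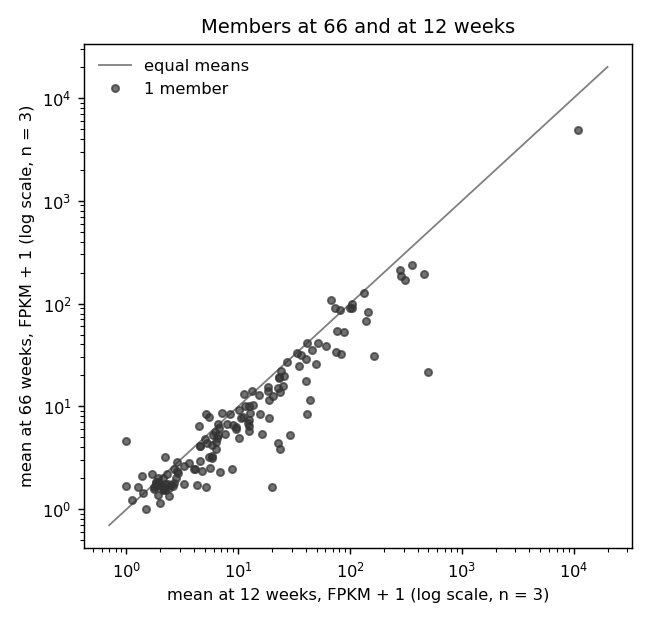
Mean FPKM + 1 at 66 weeks (vertical log axis) against that at 12 weeks (horizontal log axis) for each of the 143 members (points, means of 3 birds), with the line of equal means. The 66-week mean is the lower one in 120 members and the higher one in 23.

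The members of rank 1 and 2 lay on opposite sides of this contrast without passing its threshold. ENSAPLG00000014341 averaged 2.30 ± 2.06 FPKM in the 66-week birds and 4.79 ± 2.55 FPKM in the 12-week birds (SD, n = 3 each; difference on the log2 scale -0.88 ± 0.48 (SE), limma adjusted p = 0.377). ENSAPLG00000008841 averaged 1.097 ± 0.619 FPKM in the 66-week birds and 0.386 ± 0.445 FPKM in the 12-week birds (SD, n = 3 each; difference on the log2 scale 0.60 ± 0.30 (SE), limma adjusted p = 0.344). In both, the birds of the 2 ages overlapped. For ENSAPLG00000008841 the difference was 1.60 with 0.1 and 2.08 with 0.01 added to the FPKM in place of 1, so its size depends on this setting. This member reached a mean of 1 FPKM only through its 35-week values. It was therefore not tested with only the 12-week and 66-week birds fitted. The only member with an unadjusted p under 0.05 on the higher side had 7.99, 7.69 and 6.64 FPKM in the 66-week birds, against 5.44, 5.39 and 1.63 FPKM in the 12-week birds (difference on the log2 scale 0.82 ± 0.35 (SE), limma adjusted p = 0.294). It was the member of rank 8, at 26.1, 27.6 and 16.9 FPKM in the 35-week birds.

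A few members may rest on very few fragments. Of the 143, 15 were listed at 0 in at least 1 library, against 5.8% of all tested genes. The conditions allow no zero at 35 weeks, since the lowest 35-week value must lie above all values of the other ages. Of these members, 7 had a zero at 12 weeks and 14 at 66 weeks. A value of 0 in such a table may also be a failed estimate. A member at 13.1, 11.3 and 11.2 FPKM in the 35-week birds was at 10.8 FPKM in 1 bird of 66 weeks and listed at 0 in the other 5. Its values were nearest to 1 fragment in each of these 4 libraries, with a largest deviation of 0.202 from a whole number. Another member stood at 2.70, 4.68 and 2.31 FPKM in the 35-week birds and at 2.096 FPKM in 1 bird of 66 weeks. These values were nearest to 1, 2, 1 and 1 fragments, with a largest deviation of 0.135. Both deviations are wider than the 0.1 used for the relative depth, so these fragment numbers are rough. In both members the 66-week bird above 0 was bird 2, whose library had the highest relative depth, 1.28. With so few fragments, these 2 members cannot show whether the ages differ. The fragment numbers hold only if the smallest value is 1 fragment, which the files do not state.

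With all 9 libraries, genes highest at 35 weeks were about as many as genes highest at 66 weeks under the same conditions. With the ages exchanged, 19 genes met them with 12 weeks the highest and 125 with 66 weeks the highest. With the conditions turned over, 69 genes were lowest at 12 weeks, 52 at 35 weeks and 286 at 66 weeks. These are counts over the same 9 libraries and were not tested against one another. Without bird 3 of 12 weeks 541 genes were highest at 35 weeks, and the counts of the other sets were not made without that bird.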

How the data were processed

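The deposited table gives 1 value in FPKM per gene and library, per the file headers. The submitters' processing notes name Cuffdiff, Cufflinks 2.1.1 and TopHat2 2.0.9. The sources used here do not state their roles, the genome build, the depth in reads or a scaling between libraries. The gene identifiers all begin with ENSAPLG, and no label or header names the species or release of the annotation behind them. Of 6963 low values in 1727 genes, 84.1% lay within 0.1 of a whole multiple of the value of 1 fragment, which gave the relative depth. The value of 1 fragment was fitted to the values of these same genes, so this share is no independent check.

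The members and lists were chosen with earlier results of these data known. FPKM values are no counts, so log2(FPKM + 1) was fitted with limma 3.58.1 in R 4.3.3 (3 ages in 1 model, eBayes with a trend) over the 11491 genes averaging 1 FPKM or more. The filter left out 3323. Tests were two-sided, with Benjamini-Hochberg adjustment and a threshold of 0.05. The fit was tested on simulated data with shifts far larger than the median change of the members. It does not show whether changes of that smaller size would be called. Named members were the 2 of highest rank, since the rule for genes without names allows no more and none was called between 66 and 12 weeks. The marker and gene lists could not be matched to identifiers and were not used. Other steps ran in Python 3.11.15 with pandas 2.3.3, numpy 2.4.6 and matplotlib 3.10.9. No 2 libraries held identical values.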

Additional observations from a re-analysis of the deposited data

How the results depend on the processing

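Members were kept as chosen from all 9 libraries for the contrast of 66 with 12 weeks, but only those passing the filter of each alternative were tested. These were 98 with a mean of at least 5 FPKM and 119 with only these 2 ages fitted. They were 128 with only genes above 0 in every library and 137 to 141 without a 35-week library. Under the other alternatives all members were tested. The member counts and medians below are over the members tested. The 0 members called higher by limma stayed 0 under all 20 alternatives. The 0 called lower became 1 with library weights and 1 with only genes above 0 in every library, an alternative chosen after seeing the data, and without 1 library at a time it was 0 to 1, the 1 coming without 12-week bird 2. Over all tested genes limma called 32 higher and 10 lower, and 1 and 0 with the replicate block, 5 and 4 with quantile normalization, 20 and 10 with median-ratio scaling, 25 and 6 without a trend, 5 and 2 with only these 2 ages fitted, 42 and 16 with only genes above 0 in every library and 76 and 23 with library weights. The median log2 fold change of the members kept its sign under all 20 alternatives, at -0.559 to -0.196 without 1 library at a time and at -0.464 to -0.288 under the others. The lower count was also 0 with the replicate number as a block (replicate block), where the median was -0.385. Over 9 pairs of birds with the same replicate number the correlation of deviations ran from -0.0939 to 0.215. The 2 above 0.1 were of 12 with 35 weeks. Whether replicate numbers pair the birds was not tested.

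The number of members, 143, was 280 with a 1.5-fold condition, 39 with a 3-fold one and 322 without the condition on single birds. It was 125 with quantile normalization and 139 with median-ratio scaling, of which 118 and 136 were among the 143. Without 1 library at a time it was 100 to 541, with 541 without 12-week bird 3 and 246 without 35-week bird 1. The share of genes in which a 35-week bird left out of the choice lay above the other ages, 61.8% for bird 1, was 69.7% with a mean of at least 5 FPKM and 53.1% with a 3-fold condition. For bird 3, 70.8% became 60.3% with a 3-fold condition. The cause of these changes was not tested. With 3 birds per age, an exact permutation test of a single value could not go below 0.1.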

Other observations

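A further 57 genes met the 2-fold condition and the condition on single birds but had a mean under 1 FPKM, 1.72% of the 3323 genes below that level. They are not among the members.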
